A study of Mus musculus with 21 samples.

Results

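The nuclear subunits of mitochondrial complex III, the cytochrome bc1 complex, and its electron acceptor cytochrome c were described in the hippocampus of adult mice after maternal separation (MS) and after standard rearing (SR). The 10 genes were taken by their symbols from the 55487 genes of the count table: Uqcrc1, Uqcrc2, Cyc1, Uqcrfs1, Uqcrh, Uqcrb, Uqcrq, Uqcr10 and Uqcr11 for the complex, and Cycs for somatic cytochrome c. All of them had counts in every library, with at least 313 counts per library, and all of them passed the filter on low counts. The rule used gene names and no measured value, but the list was drawn up with earlier results of these data known. On GRCm38, GENCODE M21 places Uqcrh at chr4:116066965-116075071, Uqcr10 at chr11:4701973-4704342 and Uqcr11 at chr10:80402997-80406830, all on the minus strand, and their main transcripts have 4, 2 and 3 exons.

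Poly-A RNA was sequenced with 1 library per mouse from 21 male wild-type C57BL/6 mice killed at 10 weeks of age, 9 MS and 12 SR. MS nests were moved as a whole to another cage, away from the dam, for 4 hr on each of postnatal days 10 to 17, and much of the nesting material in their home cages was removed, whereas SR nests stayed with their dams. Because whole nests were assigned, littermates shared a condition, and the labels name no nest. Animal numbers come in 7 runs of 3, each within a condition, and a mouse is named here by the letter of its run, or set (MS has sets A, B and C, SR has sets D, E, F and G), and its place in it.

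Complex III is the middle enzyme of the respiratory chain. It takes electrons from ubiquinol, which the dehydrogenases of the inner membrane produce, and passes them to cytochrome c while moving protons across the membrane, a scheme called the Q cycle. Cytochrome b, encoded by the mitochondrial genome, the Rieske iron-sulfur protein (Uqcrfs1) and cytochrome c1 (Cyc1) carry the redox centres, the 2 core proteins (Uqcrc1 and Uqcrc2) form the matrix side, and the small accessory subunits sit around them. Neurons depend on this chain for most of their ATP, and cytochrome c released from mitochondria also starts the caspase cascade of apoptosis.

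RefSeq promoter windows on GRCm38.p6, 250 bases before to 50 bases after the start of transcription, were at hand for 6 of the 10 genes (Uqcrh, Uqcr11, Uqcr10, Uqcrfs1, Uqcrc1 and Cycs). They were searched on both strands for motifs of factors known to act on respiratory chain genes. The 250 upstream bases are shown, 5′ to 3′ on the gene's strand, for a pair of accessory subunits whose levels are described below and for Cycs, with motif matches in capitals. The windows lie at chr4:116075071-116075320 (minus strand) for Uqcrh, chr10:80406822-80407071 (minus strand) for Uqcr11 and chr6:50566570-50566819 (minus strand) for Cycs.
Uqcrh: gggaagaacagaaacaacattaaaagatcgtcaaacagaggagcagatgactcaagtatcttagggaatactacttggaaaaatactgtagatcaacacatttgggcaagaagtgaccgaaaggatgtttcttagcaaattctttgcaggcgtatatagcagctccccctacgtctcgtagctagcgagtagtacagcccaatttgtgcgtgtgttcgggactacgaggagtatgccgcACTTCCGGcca
Uqcr11: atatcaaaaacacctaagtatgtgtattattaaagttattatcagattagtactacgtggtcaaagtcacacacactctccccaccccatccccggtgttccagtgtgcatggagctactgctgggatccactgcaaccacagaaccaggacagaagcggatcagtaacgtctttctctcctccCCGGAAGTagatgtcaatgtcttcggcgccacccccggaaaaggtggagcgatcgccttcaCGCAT
Cycs: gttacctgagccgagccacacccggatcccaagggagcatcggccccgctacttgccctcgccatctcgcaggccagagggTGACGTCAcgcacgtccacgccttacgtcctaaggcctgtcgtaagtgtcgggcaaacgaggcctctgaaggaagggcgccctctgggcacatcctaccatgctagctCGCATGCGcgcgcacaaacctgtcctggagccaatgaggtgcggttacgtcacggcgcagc
In Uqcrh the capitals mark an ETS-type motif, CCGGAAGT, read on the other strand, which starts 11 bases before the start of transcription. Uqcr11 holds the same motif 66 bases before its start and an NRF1-type motif, CGCANGCG, which begins 5 bases before the start and runs past the end of the printed bases. Cycs holds an NRF1-type motif 61 bases and a cyclic AMP response element, TGACGTCA, 169 bases before its start. In the whole windows, the NRF1-type motif was in 4 of the 6 genes (Cycs, Uqcrc1, Uqcr11 and Uqcr10) and in 8.21% of all 32851 windows, the ETS-type motif in 2 (Uqcrh and Uqcr11) and in 3.89%, and the cyclic AMP response element in 2 (Cycs and Uqcrfs1) and in 1.79%. AAGATGGCG, a YY1-type motif found in 1.40% of all windows, and the GC box GGGCGGG, found in 25.6%, matched none of the 6. No matches overlapped each other in the 6 windows, and a match is a run of letters, not a measured binding site.

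The total count per library was 17276810 to 30449055. An MS library, B2, stood apart. In a principal component analysis of the 500 most variable genes its first score was 27.1, with the other 20 libraries between -12.2 and 11.9. B2 had 1980 CPM (the count scaled to the normalized total of the library) summed over 7 striatum markers, where the others had 81.9 to 680, and 24.3 CPM over 4 dentate gyrus markers, where the others had 169 to 392. The 5 markers of the CA fields summed to 378 to 715 CPM in the other 20 libraries and to 216 CPM in B2. B2 was left out, so that the values below rest on 8 MS and 12 SR mice. Of the 18146 genes tested, edgeR called 2 (0.011%) at an adjusted p under 0.05, both higher in MS, and 1202 (6.62%) were higher in MS at an unadjusted p under 0.05. Per the study's methods, litters were balanced to 3 males and 3 females each, so the 7 sets of 3 males may be 7 nests. The labels do not say which mice are littermates. The p-values, standard errors and SDs here measure the spread between mice, not between nests, and mice of a nest may not be independent.

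Per length of the main transcript, the mRNAs of one complex did not stand at one level. In SR, Uqcrc1 was the most abundant, at 125 ± 4.20 CPM per kb (SD, n = 12), followed by Cyc1 at 80.4 ± 3.33 and Uqcrh at 78.1 ± 4.60, Uqcrc2 at 64.9 ± 2.92, Uqcr10 at 58.2 ± 4.96, Uqcr11 at 51.6 ± 5.48, Uqcrfs1 at 50.2 ± 2.49, Uqcrb at 38.2 ± 3.26, Uqcrq at 30.0 ± 2.13 and Cycs at 28.0 ± 1.15 CPM per kb. Neighbours in this order whose ranges of mean ± SD overlapped were Cyc1 and Uqcrh, the run from Uqcrc2 to Uqcrfs1, and Uqcrq and Cycs. In MS, Uqcrh stood at 93.4 ± 9.81 CPM per kb (n = 8), above Cyc1 at 82.6 ± 4.76, and Uqcr10 at 71.5 ± 10.4, above Uqcrc2 at 65.2 ± 3.64. The order rests on the length used. Divided by the length of all annotated exons, Cyc1 led in SR with 56.7 CPM per kb, Uqcrc1 had 49.9 and Uqcrh 34.5.

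All 10 genes had a log2 fold change above 0 (MS against SR), as had 50.3% of all genes tested, and none passed the threshold after adjustment over all genes, nor with all 21 libraries (0.00553% of genes called). Unadjusted p was under 0.05 for 6 of the 10, all with the higher mean in MS: Uqcr10, Uqcr11, Uqcrb, Uqcrh, Uqcrq and Uqcrfs1. The same held for 6.62% of all genes tested. The median log2 fold change was 0.17 over the 10 genes, against 0.00 over all genes tested. These 6 are the 5 small accessory subunits and the Rieske protein, while the core proteins, cytochrome c1 and cytochrome c lay at 0.01 to 0.06 on the log2 scale. The DESeq2 Wald test on the same libraries called 132 of 14276 genes (0.925%), Uqcr10 and Uqcrh among them.

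**Figure D1:**
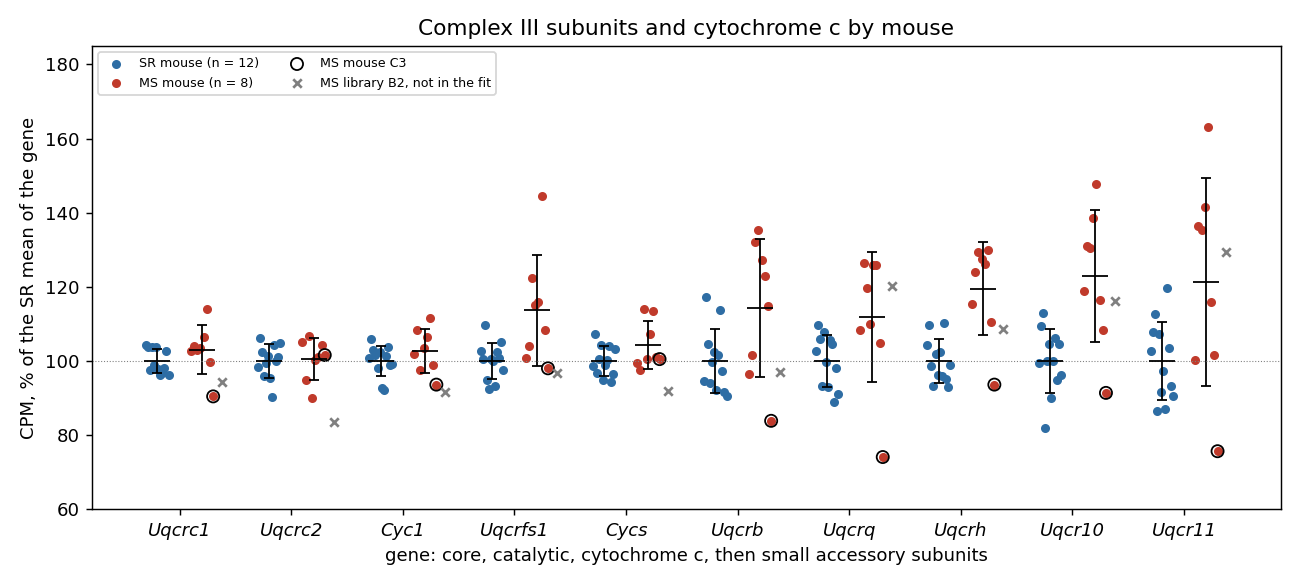
CPM of each gene in each mouse, as a percentage of that gene's SR mean; points are mice, bars are means ± SD of 8 MS and 12 SR mice, the ring marks MS mouse C3 and the cross the library B2. In the 5 accessory subunits at the right, 4 to 7 of the 8 MS mice lie above every SR mouse, and C3 lies under the SR mean in all of them.

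Uqcrh, the hinge protein that assists the docking of cytochrome c on cytochrome c1, had the smallest p of the 10 genes. Its level was 40.0 to 55.5 CPM in MS (median 53.5) and 39.7 to 47.2 CPM in SR (median 42.2). In 7 of 8 MS mice it lay above every SR mouse, and only C3 lay within the SR range. For C2 this is uncertain, since it had 47.18 CPM and the highest SR mouse, F3, had 47.16 CPM. The means were 51.1 ± 5.37 CPM (SD, n = 8) and 42.7 ± 2.52 CPM (n = 12), a log2 fold change of 0.26 (SE 0.0519, 95% interval 0.15 to 0.37). By unadjusted p this was gene 4 of 18146 (edgeR, adjusted p = 0.111; DESeq2, adjusted p = 0.00832). The groups of no member were fully apart, which held for 2 of all genes tested (0.011%).

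Uqcr10, a small subunit with a single membrane span, had the highest log2 fold change of the 10 genes in these 20 mice. Its level was 23.1 to 37.3 CPM in MS (median 31.5) and 20.7 to 28.5 CPM in SR (median 25.2), and 6 of 8 MS mice lay above every SR mouse. The means were 31.0 ± 4.51 CPM and 25.2 ± 2.15 CPM. The log2 fold change was 0.30 (SE 0.0703, 95% interval 0.15 to 0.44; edgeR, adjusted p = 0.118; DESeq2, adjusted p = 0.0241).

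Uqcr11, the smallest subunit of the complex, had the largest SD among MS mice relative to its mean. Its level was 17.4 to 37.5 CPM in MS (median 28.8) and 19.9 to 27.5 CPM in SR (median 23.0), so that the lowest and the highest mouse were both MS mice, C3 and B3. The means were 27.8 ± 6.46 in MS and 23.0 ± 2.44 in SR, and the log2 fold change was 0.28 (SE 0.104, 95% interval 0.06 to 0.50; edgeR, adjusted p = 0.302).

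Uqcrb and Uqcrq are accessory subunits that join cytochrome b early in the assembly of the complex. Uqcrb had 17.2 to 27.7 CPM in MS (median 24.3) and 18.5 to 24.0 CPM in SR (median 20.1), with a log2 fold change of 0.20 (SE 0.0753; edgeR, adjusted p = 0.315). Uqcrq had 33.8 to 57.8 CPM in MS (median 52.4) and 40.6 to 50.1 CPM in SR (median 46.2), with a log2 fold change of 0.16 (SE 0.0726; edgeR, adjusted p = 0.385). For both genes the lowest of all mice was C3, while 4 MS mice for Uqcrb and 5 for Uqcrq lay above every SR mouse.

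Uqcrfs1, the Rieske iron-sulfur protein that hands electrons from ubiquinol to cytochrome c1, had 67.1 to 98.9 CPM in MS (median 76.4) and 63.2 to 75.1 CPM in SR (median 68.8). The highest mouse was C1, and 4 of 8 MS mice lay above every SR mouse. Its log2 fold change was 0.19 (SE 0.0545, 95% interval 0.07 to 0.30; edgeR, adjusted p = 0.189).

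The core proteins, cytochrome c1 and cytochrome c had smaller differences. Uqcrc1, a core protein related to mitochondrial processing peptidase, had 187 to 235 CPM in MS (median 213) and 198 to 215 CPM in SR (median 203), with a log2 fold change of 0.04 (SE 0.0344; edgeR, adjusted p = 0.670). Uqcrc2, the other core protein, had 111 to 131 CPM in both groups (medians 125 and 124), and its log2 fold change was 0.01 (SE 0.0354; edgeR, adjusted p = 0.963). Its 95% interval, -0.07 to 0.08, lies under those of Uqcr10 and Uqcrh, which both start at 0.15. It overlaps those of Uqcr11 (0.06 to 0.50), Uqcrb (0.04 to 0.35) and Uqcrq (0.01 to 0.31), and no test between genes was made. Cyc1, which carries the haem that passes electrons on to cytochrome c, had 114 to 136 CPM in MS (median 126) and 113 to 130 CPM in SR (median 123), with a log2 fold change of 0.04 (SE 0.0347; edgeR, adjusted p = 0.712). Cycs had 85.4 to 99.6 CPM in MS (median 88.2) and 82.5 to 93.9 CPM in SR (median 87.1), with a log2 fold change of 0.06 (SE 0.0353; edgeR, adjusted p = 0.532). The groups overlapped in these 4 genes, as they did in all 10.

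The counts of the 5 small subunits were also set against those of the 2 core proteins within each library, a ratio in which the library total cancels. It was 0.422 to 0.618 in MS (mean 0.548 ± 0.0682 SD, n = 8) and 0.428 to 0.5259 in SR (mean 0.477 ± 0.0299, n = 12). A2, A3, B1, B3 and C1 lay above every SR mouse, A1 and C2 lay within the SR range and C3 was the lowest mouse. Without C3 the MS mean was 0.566 ± 0.0491 (n = 7). B2, which was in no mean, had 0.606. Transcript length does not cancel in this ratio. The main transcripts of 4 of the 5 small subunits are under 600 bases, and those of Uqcrc1 and Uqcrc2 have 1653 and 1896. Among all protein-coding genes tested, the median log2 fold change was 0.14 under 600 bases and 0.04 from 1000 to under 2000. The part of length in the ratio was not tested.

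**Figure D2:**
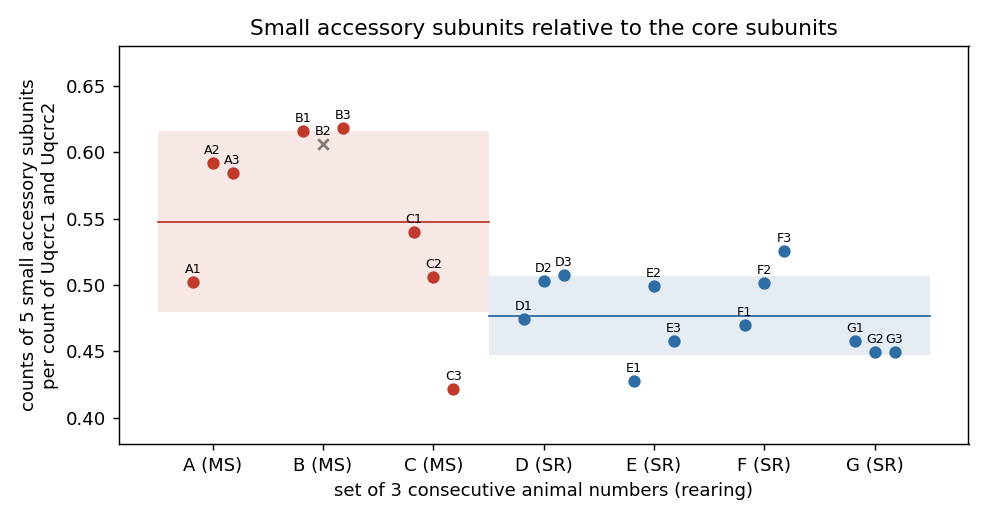
Counts of Uqcr10, Uqcr11, Uqcrb, Uqcrh and Uqcrq per count of Uqcrc1 and Uqcrc2 in each mouse, by set of consecutive animal numbers; lines and bands are the mean ± SD of 8 MS (red) and 12 SR mice (blue), and the cross is B2. Sets A and B lie between 0.502 and 0.618, set C spreads from 0.422 to 0.540, and the SR sets lie between 0.428 and 0.5259.

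The small subunits also varied together within groups. Over the 20 mice, with each group centred on its own mean of log2 CPM, Pearson's r was 0.69 to 0.85 in the 10 pairs of small subunits (median 0.77), with the highest value for Uqcr10 and Uqcr11. In the 10 pairs without a small subunit it was -0.03 to 0.72 (median 0.32), and in the 25 mixed pairs -0.07 to 0.70 (median 0.45), with the highest for Uqcrc1 and Uqcrq. The core proteins did not follow each other, with r = -0.03 for Uqcrc1 and Uqcrc2, whereas Uqcrc1 and Cyc1 had r = 0.72. These are descriptions of genes measured in the same libraries, whose quality they share, and no test was made. The genes outside the list with the pattern most like the mean of the 10 were Ndufa13, a complex I subunit (r = 0.93 over 20 mice), Rpl32 (0.92), Ppia (0.92), Rpl37a (0.91), Elob (0.90), Gm10123 (0.90), Lsm4 (0.90), Rps26 (0.90), Chchd2 (0.89) and Rps16 (0.89).

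The log2 fold changes went with the length of the mRNA. The main transcripts of Uqcr10, Uqcr11, Uqcrb and Uqcrh have 434 to 547 bases, that of Uqcrfs1 has 1363, and those of Uqcrq, Cyc1, Uqcrc1, Uqcrc2 and Cycs have 1520 to 3123. Over the 10 genes, the rank correlation of the log2 fold change with this length was -0.87, and with the mean CPM -0.85 (descriptions over 10 genes, which are not independent). Among all protein-coding genes tested, the median log2 fold change was 0.14 in the 162 genes with main transcripts under 600 bases, of which 73.5% were higher in MS, and it was 0.09 from 600 to under 1000, 0.04 from there to under 2000, 0.00 to under 4000 and -0.02 from 4000 bases on. Uqcr10, Uqcr11, Uqcrh and Uqcrb lay above the median of their class, Uqcr10 and Uqcr11 also above its upper quartile of 0.27. Uqcrfs1 and Uqcrq lay above the upper quartile of theirs (0.11). Uqcrc1, at 0.043, and Cyc1, at 0.039, lay at their class median of 0.040, and Uqcrc2, at 0.007, lay under it. Cycs, at 0.060, lay above the median of its class, 0.004, and within its quartiles.

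The trend of log2 CPM with exonic length within a library (Spearman's rho over genes) was 0.453 to 0.498 in MS and 0.476 to 0.494 in SR. It was lowest in C1 and highest in A1, followed by C3 at 0.497. Its mean was 0.482 ± 0.0144 in MS (SD, n = 8) and 0.487 ± 0.00577 in SR (n = 12), and 0.486 in MS without C1. With this trend as a term the log2 fold changes of Uqcr10 and Uqcrh were 0.28 and 0.23, that of Uqcr11 was 0.24 and that of Uqcrfs1 0.13, and again none of the 10 genes was called (4 of 18146 genes called, 0.022%). The lowest adjusted p among them was 0.0933, for Uqcrh. Because the trend differed little between the groups, this term cannot decide the part of length in these differences, which was not tested further.

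**Figure D3:**
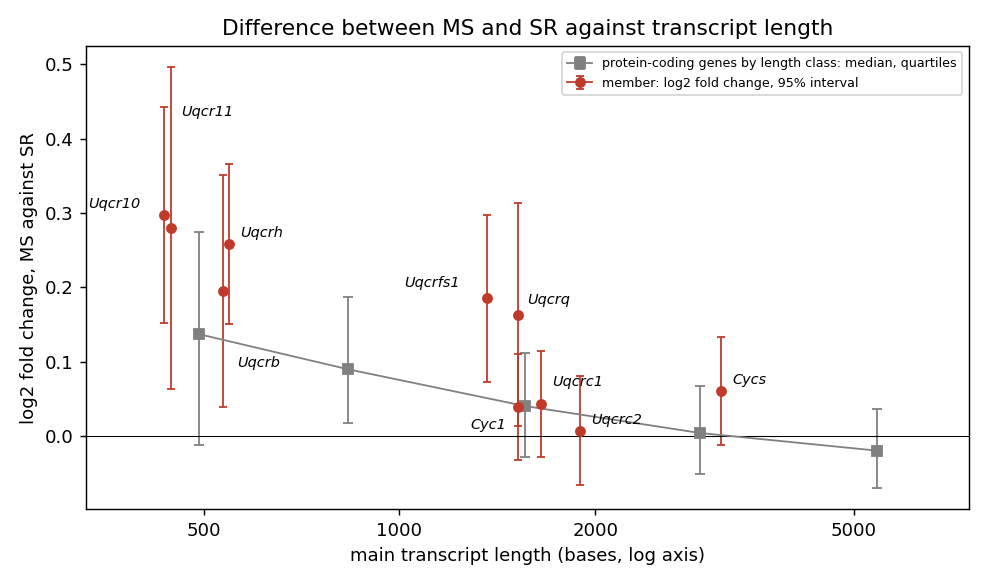
Log2 fold change, MS against SR, of each gene (red, with the 95% interval of the edgeR fit) against the length of its main transcript on a log axis; grey squares and bars are medians and quartiles of all protein-coding genes tested in 5 length classes. The class medians descend from 0.14 to -0.02 with length, and the 5 small subunits and Uqcrfs1 lie above the medians of their classes.

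Some sets of markers of cells and of neighbouring tissue had different means in the groups, with overlapping ranges. The 7 choroid plexus markers all had a higher mean in MS (median log2 fold change 0.90, none called), and their summed level was 52.9 to 4187 CPM in MS (median 3305) and 29.0 to 4512 CPM in SR (median 834). With this level as a term, added after the values were seen, the log2 fold changes were 0.25 for Uqcrh, 0.23 for Uqcr10, 0.24 for Uqcr11, 0.18 for Uqcrfs1, 0.17 for Uqcrb and 0.13 for Uqcrq, and edgeR called no gene (0 of 18146, 1495 at an unadjusted p under 0.05). The 7 striatum markers all had a higher mean in MS too (81.9 to 680 CPM against 88.1 to 425 summed, median log2 fold change 0.48), whereas none of the 4 dentate gyrus markers (median -0.10) and 1 of the 5 markers of the CA fields (median -0.05) had. The 4 neuron markers all had a lower mean in MS (3930 to 4572 CPM against 4232 to 4836 summed, median log2 fold change -0.10), and the 4 erythrocyte markers a higher one (136 to 446 CPM against 142 to 420 summed, median log2 fold change 0.25). Markers of astrocytes, oligodendrocytes, microglia and endothelium had median log2 fold changes of 0.02, 0.01, 0.05 and 0.07. None of the markers was called, and none was at 0 in every library. In bulk tissue, fewer cells of a type and less RNA per cell cannot be told apart, and the part of these cells in the subunit levels was not tested further.

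The calls changed with the mice that entered the fit, as they did with the test used. The animal numbers fall into a first range (sets A, B, D, E and F, with 5 MS and 9 SR mice used) and a second range (sets C and G, 3 against 3). Within the first range the log2 fold changes were 0.42 for Uqcr11, 0.41 for Uqcr10 and 0.30 for Uqcrh, and these 3 genes were called (edgeR, adjusted p = 0.0469, 0.0175 and 0.0139), as were 1.25% of all genes there. Within the second range they were 0.04, 0.10 and 0.22, with adjusted p of 0.937 or more for all 10 genes (edgeR, 0 of 17940 genes called, 810 at an unadjusted p under 0.05). Uqcrb and Uqcrfs1 had like estimates in both ranges, 0.21 in each for Uqcrb and 0.17 and 0.21 for Uqcrfs1. In the second range their standard errors were 0.134 and 0.131. For Uqcrfs1, C1 had 98.9 CPM there, C2 74.2 and C3 67.1, against 66.7 to 71.9 CPM in set G. Without C1, the fit of both ranges together gave 0.13 for Uqcrfs1. For Uqcr10 the test of the difference between the ranges gave -0.31 (SE 0.126, edgeR unadjusted p = 0.0226, adjusted p = 0.5263), and for Uqcr11 it gave -0.39 (SE 0.187, edgeR unadjusted p = 0.0518, adjusted p = 0.582). It had an unadjusted p above 0.05 for the other 8 genes as well, and no gene passed it after adjustment (8.67% at an unadjusted p under 0.05).

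**Figure D4:**
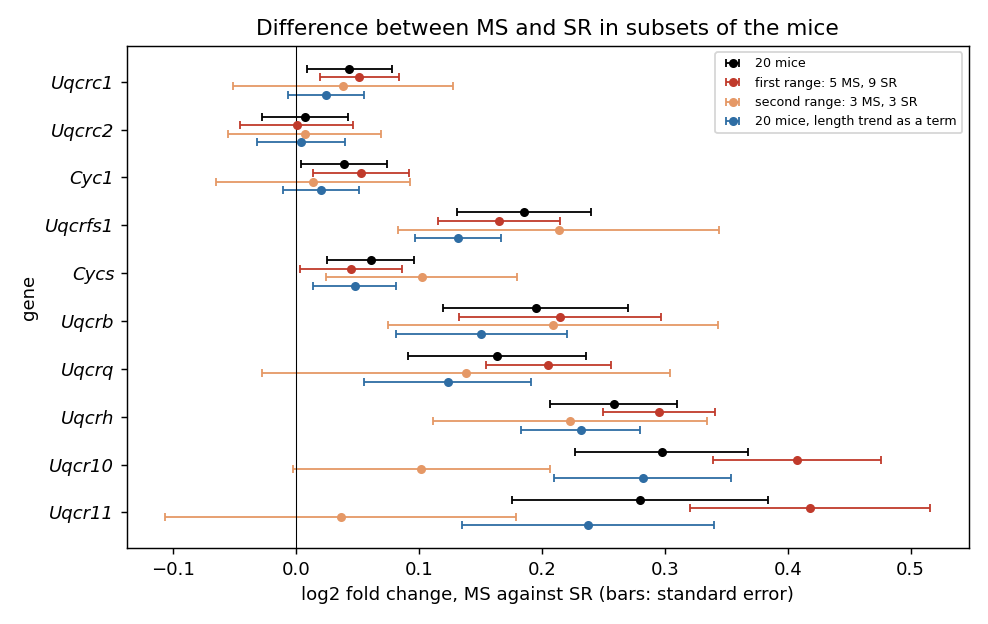
Log2 fold change, MS against SR, with standard errors from edgeR, over the 20 mice, within each range of animal numbers and over the 20 mice with the transcript-length trend as a term. Uqcr10 and Uqcr11 are at 0.41 and 0.42 in the first range and at 0.10 and 0.04 in the second, while Uqcrb, Uqcrh and Uqcrfs1 have estimates between 0.17 and 0.30 in both.

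Among the MS sets, set C had the lowest mean level of each of the 5 small subunits. Its mean Uqcr10 level was 26.6 CPM against 32.0 in set A and 36.1 in set B, and 24.1 to 27.1 in the 4 SR sets. For Uqcrh, set C had 47.6 CPM, sets A and B had 52.5 and 54.2, and the SR sets had 40.9 to 44.5. The mice of set C were not alike. C1, C2 and C3 had 55.5, 47.2 and 40.0 CPM of Uqcrh, and 29.4, 27.4 and 23.1 CPM of Uqcr10. Without C3, Uqcrh, Uqcr10 and Uqcrq were called (edgeR, adjusted p = 0.00469, 0.0116 and 0.0318; 0.596% of all genes called), and without C2, Uqcrh and Uqcr10 (edgeR, adjusted p = 0.0420 and 0.0444; 0.597%). Without the whole of set C, 4 were called (1.83% of all genes). Leaving out set B went the other way. The log2 fold changes were then 0.21 for Uqcr10, 0.15 for Uqcr11, 0.12 for Uqcrb and 0.23 for Uqcrh. None of these was called (edgeR, adjusted p = 0.492, 0.704, 0.699 and 0.411), nor was any other gene. Without C2 and C3 together, a setting chosen after the values were seen, 5 of the 10 genes were called, Uqcrh, Uqcr10, Uqcr11, Uqcrq and Uqcrfs1, and 2.58% of all genes. With counts summed within each of the 7 sets, so that the set was the unit, the log2 fold changes were 0.33 for Uqcr10, 0.33 for Uqcr11 and 0.28 for Uqcrh, and no gene was called (edgeR, 0 of 21752 genes, 1753 at an unadjusted p under 0.05; adjusted p = 0.382 for Uqcrh).

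The partners of these subunits were grouped in lists by their role. The mitochondrially encoded subunit, mt-Cytb, had a lower mean in MS, 4316 ± 489 CPM against 4804 ± 176 CPM, a log2 fold change of -0.15 (SE 0.0520; edgeR, adjusted p = 0.247), the opposite sign to the 10 nuclear genes. Of 8 genes for assembly of the complex and maturation of its cytochromes none was called (median log2 fold change 0.01). The smallest p among them was that of Uqcc2, an assembly factor that acts on newly made cytochrome b, with 17.9 ± 2.68 against 14.9 ± 1.32 CPM, or a log2 fold change of 0.27 (edgeR, adjusted p = 0.174), followed by Bcs1l, which inserts the Rieske protein, at 0.05 (edgeR, adjusted p = 0.691). Of 13 genes of coenzyme Q synthesis none was called, and the median was 0.02. Pdss1, which makes the side chain, had a log2 fold change of -0.12 and Coq8b 0.11 (edgeR, adjusted p = 0.514 and 0.520).

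Of 9 genes for enzymes that reduce ubiquinone, edgeR called none (median log2 fold change 0.07). An unadjusted p under 0.05 with the higher mean in MS was found for 3 of them and for 6.62% of all genes tested. Sdhd, a membrane anchor of succinate dehydrogenase, had 52.0 ± 3.41 against 45.9 ± 2.24 CPM, or a log2 fold change of 0.18 (edgeR, adjusted p = 0.111; DESeq2, adjusted p = 0.0143), and Sdhc, the other anchor, 0.11 (edgeR, adjusted p = 0.315). Downstream of cytochrome c, none of 9 genes of its cell death pathway was called (median 0.03), with Bax at 0.11 (edgeR, adjusted p = 0.502) and Bcl2 at 0.17 (edgeR, adjusted p = 0.542). The mitochondrial processing peptidase subunits Pmpca and Pmpcb, relatives of the core proteins, had -0.06 and 0.09 (edgeR, adjusted p = 0.520 and 0.459), and Cyct, the testis form of cytochrome c, did not pass the filter on low counts.

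Reads of Cycs can be shared with near-identical genes. Gm10053 matches it in 99.9% of 946 bases and Gm10108 in 99.4% of 319 bases, and 4 such genes together held 28.1% of the summed counts. Gm10053 had a log2 fold change of 0.11 (edgeR, adjusted p = 0.342) and Gm10108 0.07. With all of them summed, Cycs had 0.07 (edgeR, adjusted p = 0.463), so its estimate moved little, but its level is uncertain. Gm13772 had 96 of these counts over the 21 libraries. The 3 near-identical genes of Uqcrb, Gm16089 and Gm2962 (20 and 17 counts) among them, held 0.398% of the summed counts. On the opposite strand, Gm10767 shares 50 exonic bases with Uqcrb and Pdzd9 shares 504 with Uqcrc2. The sources used here do not state whether the counting used strand. These neighbours had 1447 and 419 counts over the 21 libraries, against 10014 for Uqcrb and 56675 for Uqcrc2.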

How the data were processed

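Hippocampal poly-A RNA of 9 MS and 12 SR mice was sequenced as paired-end reads on a NovaSeq6000. Per the labels and the study's methods, STAR 2.7.3a aligned them to GRCm38 and featureCounts assigned them to Ensembl genes. The authors deposited raw counts, 1 column per library, neither normalized nor filtered. Use of strand and treatment of multiply mapped reads are not given in the sources used here. Columns of no sample, and lines that name no gene, numbered 0.

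Groups came from the treatment label. The members and gene lists were chosen with earlier results of these data known. The quasi-likelihood test in edgeR 4.0.16 (robust, R 4.3.3) compared MS with SR after TMM normalization and filterByExpr (minimum count 10), with Benjamini-Hochberg adjustment over 18146 genes and a threshold of 0.05. Library B2 was left out as the library that stood apart in the principal component analysis; the study's methods also removed 1 outlier, without naming it. CPM are relative to the TMM-normalized total, and log2 CPM used a prior count of 2. The CPM of B2 come from a normalization of all 21 libraries. Standard errors were taken from the log2 fold change and the root of its F statistic. The biological coefficient of variation was 13.3%, and low counts are the least precise. No libraries were identical; the closest pair within a group had a chi-square of 3.58 per degree of freedom.

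Alternatives were all 21 libraries, DESeq2 1.42.0, other filters and size factors, number range or length trend as a term, limma-voom (limma 3.58.1) with sets as random blocks, sums by set, each library, set or range left out, and 2 chosen after seeing the data: choroid plexus level as a term, and no C2 and C3. Named genes were the 10 members, mt-Cytb, of each list the genes called or else the 2 of smallest p, near-identical genes with at least 10 counts, and the 10 genes most alike. Annotation was GENCODE M21. Near-identical genes were sought with BLAST+ 2.17.0 (95% identity over 200 bases). Promoters are RefSeq's on GRCm38.p6, searched with Python 3.11.15. Scripts were tested on simulated data.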

Additional observations from a re-analysis of the deposited data

Results flagged for a closer look

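In the library left out, B2, 3 small subunits lay above the highest of the 12 SR mice: Uqcr10 with 29.3 CPM (highest SR mouse 28.5), Uqcr11 with 29.7 CPM (27.5) and Uqcrq with 54.8 CPM (50.1). The other 7 genes did not, and 4 of them lay under the lowest SR mouse: Uqcrc1 with 194 CPM (lowest SR mouse 198), Uqcrc2 with 103 CPM (111), Cyc1 with 112.1 CPM (112.7) and Cycs with 80.2 CPM (82.5). The values of B2 come from a normalization of all 21 libraries and those of the SR mice from one without B2. A gap as small as that of Cyc1 is therefore uncertain. B2 is the library with the high striatum and low dentate gyrus markers, and the part of these in its levels was not tested.

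MS mouse C3 had 33.8 CPM of Uqcrq, and its gap to the next MS mouse was 0.587 of the range of the 8 mice, beyond the 95% limit of Dixon's test. Chance passes this limit in about 1 in 20 groups, and 10 genes were looked at. C3 was also the lowest MS mouse for Uqcr10, Uqcr11, Uqcrb, Uqcrh, Uqcrc1, Uqcrfs1 and Cyc1.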

How the results depend on the processing

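The 40 or 41 alternatives kept the direction of every gene but Uqcrc2. Uqcrc2 kept it in 27 of 40; it was -0.021 with all 21 libraries, -0.0022 with no filter on low counts, -0.0095 without set A, -0.0096 without set C, -0.0013 without set E, -0.0090 without set F, -0.00059 with the choroid plexus term, -0.0076 without C2 and C3 and -0.0090 to 0.025 when each library was left out in turn. The median log2 fold change of the 10 genes was 0.102 (second range) to 0.240 (without C2 and C3). Genes called, 2 in the 20 mice, were 132 by DESeq2, 340 without set C, 230 in the first range, 475 without C2 and C3, 4 with the length trend, 1 with all 21 libraries, with no filter or without set G, and 0 in the second range, with summed sets, with the choroid plexus term or without set A, B, D or E. Leaving out each library in turn gave 0 to 109 genes, with 109 both without C2 and without C3. Of the 10 genes, 2 were called by DESeq2, 4 without set C, 3 in the first range and 5 without C2 and C3, and 0 to 3 with each library left out. Uqcrh and Uqcr10 were called in 6 alternatives each, Uqcr11 and Uqcrq in 3, Uqcrfs1 in 1 and the other 5 genes in none. The causes were not tested. The lowest counts in a library were 313 for Uqcrb and 317 for Uqcr11, where counting error is largest among the 10 genes. No paired analysis was possible because the replicate numbers are only names, given in the order of the samples.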
